A study of Mus musculus with 9 samples.

Results

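The 85 genes described here are the cytochrome P450 (P450) genes of families 1 to 4, the families that hold most of the drug- and odorant-metabolizing P450 enzymes. They were chosen by symbol alone, as every gene whose name starts with Cyp, a family number from 1 to 4, a subfamily letter and a gene number. They are 85 of the 24421 genes with raw counts, and another 18 P450 genes belong to other families. Of the 85 symbols, 79 are annotated as protein-coding, 5 are pseudogenes or an antisense RNA (Cyp2c53-ps, Cyp2d37-ps, Cyp4b1-ps2, Cyp4f41-ps and Cyp4x1os), and Cyp2d13 had no match in the annotation used. RNA was taken from the whole main olfactory epithelium (MOE) at postnatal day 14 from mice labelled C57BL/6, and the study's reporting summary gives a mixed background for its mouse lines in general. The mice came from 1 line in which TAAR enhancer 2, a regulatory element of the trace amine-associated receptor genes lying between Taar6 and Taar7a, was deleted by CRISPR-Cas9 in C57BL/6J zygotes. Mice without the deletion (wild type, WT), with 1 deleted allele (heterozygous, het) or with both alleles deleted (homozygous, homo) gave 3 libraries per genotype. The deletion is a germline allele carried by every cell and not limited to the cells that use P450 enzymes. Animals of both sexes were used, sex was not a term in any fit, and no other agent was given.

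P450 enzymes sit in the membrane of the endoplasmic reticulum and insert an oxygen atom into small lipophilic molecules, with electrons passed on from NADPH by cytochrome P450 oxidoreductase (Por). In the olfactory mucosa they are found largely in sustentacular cells, the supporting cells that surround the olfactory sensory neurons, and in the acinar and duct cells of Bowman's glands, where they clear odorants and oxidize inhaled drugs and toxicants. The mucosa uses a set of these enzymes that differs from that of the liver, the organ in which most P450 genes were first described.

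Of the 85 genes, 52 reached 10 counts summed over the 9 libraries and were tested, 18 were read but stayed under that sum, and 15 had no count in any library. The 15 genes at 0 are the pseudogene Cyp2c53-ps together with members of the Cyp2b, Cyp2c, Cyp2d, Cyp3a and Cyp4a subfamilies, which in mice are largely liver or kidney enzymes. A count of 3 in a library, taken here as the floor, corresponds to 2.35 to 3.72 normalized counts, so a gene at 0 may lie anywhere under that level. The bound is uncertain for genes that share sequence, since the treatment of reads that map to several genes is not given. Only 1.39% of the 50-base stretches of Cyp3a41a and 6.50% of those of Cyp3a41b, both at 0, occur in no transcript of another gene. Total counts per library ran from 20527992 to 32262005 with a median of 26174388. The 7 mature olfactory neuron markers, among them Omp at 50264 to 60156 normalized counts, were high in every library.

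The sequences upstream of 3 pairs of P450 genes, each pair of the same subfamily, are shown. Each pair has nearly the same upstream sequence or lies back to back, while the counts of its members differ. All are the 250 bases before the RefSeq start, on build GRCm38.p6, written 5′ to 3′ on the strand of the gene. Cyp2a5, the gene with the highest level of all 85, and Cyp2a4 lie on chromosome 7 with windows at chr7:26835089-26835338 and chr7:26306942-26307191, both on the plus strand. The windows share 245 bases and differ at 4 positions, which are in capitals, beside 2 positions with a gap. Cyp2a5 had 811759 counts over the 9 libraries and Cyp2a4 had 203.
Cyp2a5: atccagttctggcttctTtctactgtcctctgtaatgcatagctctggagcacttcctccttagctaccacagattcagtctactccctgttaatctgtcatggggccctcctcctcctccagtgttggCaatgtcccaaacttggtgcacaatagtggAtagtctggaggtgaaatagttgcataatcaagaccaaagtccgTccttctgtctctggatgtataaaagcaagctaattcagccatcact
Cyp2a4: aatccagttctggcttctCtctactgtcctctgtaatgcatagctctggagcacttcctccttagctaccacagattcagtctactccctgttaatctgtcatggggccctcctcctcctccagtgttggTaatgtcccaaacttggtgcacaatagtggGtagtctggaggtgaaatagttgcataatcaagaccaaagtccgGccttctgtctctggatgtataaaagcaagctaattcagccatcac
Only 63.0% of the 50-base stretches of the Cyp2a5 exons and 62.0% of those of Cyp2a4 occur in no transcript of another gene, so the split of reads between the 2 genes is uncertain. The treatment of reads that map to several genes is not given in the sources used here.

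Cyp2b13 and Cyp2b9 are the second such pair, with windows at chr7:26061245-26061494 and chr7:26173159-26173408 on the plus strand. The windows share 248 bases and differ at 2, which are in capitals. Cyp2b13 had 520 counts and Cyp2b9 had 0.
Cyp2b13: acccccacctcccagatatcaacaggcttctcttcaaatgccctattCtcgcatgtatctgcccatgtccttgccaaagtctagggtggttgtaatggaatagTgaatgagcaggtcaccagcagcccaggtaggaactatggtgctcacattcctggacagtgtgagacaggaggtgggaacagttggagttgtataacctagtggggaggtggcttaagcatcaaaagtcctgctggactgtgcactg
Cyp2b9: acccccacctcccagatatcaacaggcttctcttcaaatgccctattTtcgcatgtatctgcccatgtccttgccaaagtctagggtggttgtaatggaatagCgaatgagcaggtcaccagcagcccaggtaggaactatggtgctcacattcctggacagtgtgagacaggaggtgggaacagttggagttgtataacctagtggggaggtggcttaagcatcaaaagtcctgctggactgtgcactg
Here 72.7% of the 50-base stretches of the Cyp2b13 exons and 88.8% of those of Cyp2b9 are unique. In both pairs, genes with nearly the same upstream window thus differed in their counts. The pairs were chosen after their counts were seen.

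Cyp1a1 and Cyp1a2 lie next to each other on chromosome 9 in opposite orientation, with windows at chr9:57697363-57697612 on the plus strand and chr9:57683656-57683905 on the minus strand. Both genes are known targets of the aryl hydrocarbon receptor in other tissues. The letters TATAAA and GCGTG, the core of the site that this receptor binds, are in capitals where they occur on either strand.
Cyp1a1: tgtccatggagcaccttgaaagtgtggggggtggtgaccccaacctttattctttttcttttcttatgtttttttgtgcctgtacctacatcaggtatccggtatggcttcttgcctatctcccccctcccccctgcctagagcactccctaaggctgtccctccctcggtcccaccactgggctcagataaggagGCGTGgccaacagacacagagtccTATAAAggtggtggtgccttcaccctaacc
Cyp1a2: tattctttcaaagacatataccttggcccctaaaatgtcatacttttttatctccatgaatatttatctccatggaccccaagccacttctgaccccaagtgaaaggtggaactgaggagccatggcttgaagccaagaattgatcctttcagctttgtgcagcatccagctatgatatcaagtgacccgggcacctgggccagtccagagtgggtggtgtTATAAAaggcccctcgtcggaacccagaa
TATAAA was found in both windows and GCGTG in the Cyp1a1 window. Of the 66 P450 genes with such a window, 26 (39.4%) held TATAAA on either strand, against 12.4% of all 32851 windows. These were 14 of the 42 tested genes with a window and 12 of the 24 such genes that were not tested. GCGTG was found for 12 of the 66 genes (18.2%), against 28.2% of all windows. A P450 gene counted where any of its windows held the letters, whereas the share of all windows is per window, so the 2 shares are not of the same unit. The 2 motifs cannot overlap, and a match of letters is a description of the window only.

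Levels per kilobase of exon spanned a wide range, and 3 genes of the Cyp2 family made up most of the P450 RNA. Cyp2a5, which oxidizes coumarin and nicotine, was highest with 42579 ± 5917 normalized counts per kb (SD, n = 9), followed by Cyp2g1, an olfactory P450 that acts on steroids, with 23058 ± 4286 and by Cyp2f2, which activates naphthalene and styrene, with 12462 ± 2244. Together they held between 88.1% and 89.4% of all P450 counts in each library. The ranges of neighbours in this order did not overlap between Cyp2a5 and Cyp2g1 (lowest Cyp2a5 library 35813, highest Cyp2g1 library 27505 per kb), whereas the lowest Cyp2g1 library, WT replicate 3 with 13160 per kb, lay under the highest Cyp2f2 library with 15996. All 3 genes are part of a cluster of 13 P450 genes on chromosome 7 (chr7:25802475-27158668 in mm10), which took up 89.3% of the P450 counts. In that cluster Cyp2g1 lies at chr7:26808892-26821205, Cyp2a5 at chr7:26835305-26843548 and Cyp2f2 at chr7:27119909-27133660, all on the plus strand (GENCODE M21).

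Cyp1a2, which oxidizes caffeine and arylamines, came next with 2636 ± 321 normalized counts per kb. Below it lay Cyp2j6 (734 ± 69.6), an arachidonic acid epoxygenase, Cyp1a1 (699 ± 128), which oxidizes polycyclic hydrocarbons, and Cyp4v3 (669 ± 75.1), a fatty acid omega-hydroxylase. Cyp2e1, known for the oxidation of ethanol and nitrosamines, had 566 ± 179. These 4 genes could not be ordered, as their ranges over the 9 libraries overlapped. The list of 12 was completed by Cyp4f15 (463 ± 58.2) and Cyp4f13 (177 ± 13.8), both of the subfamily that hydroxylates leukotrienes and fatty acids, by Cyp3a13 (343 ± 80.7) of the drug-metabolizing Cyp3a subfamily, and by Cyp4b1 (227 ± 75.9), which activates furan toxicants. The 12 genes together held 98.0% of the P450 counts, and the lower genes fell off without a gap, as the plot of levels by gene shows.

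**Figure D1:**
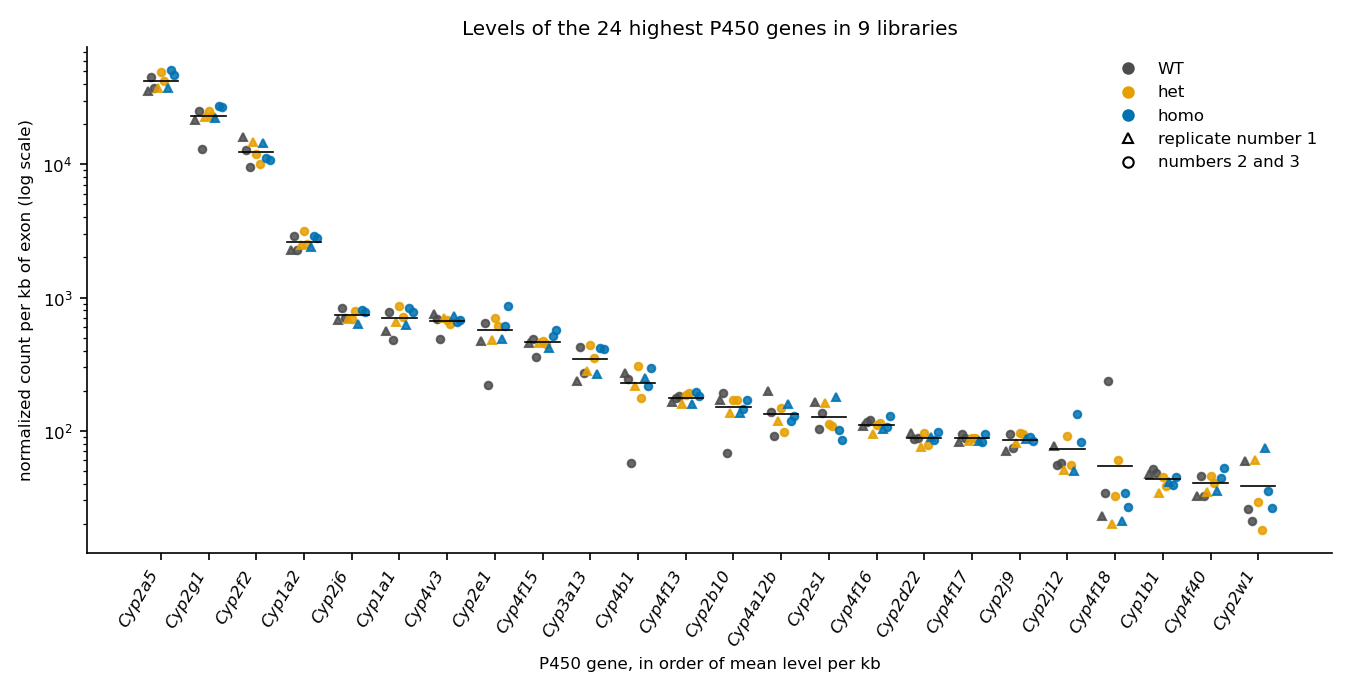
Normalized count per kb of exon (log scale) in each of the 9 libraries for the 24 P450 genes with the highest mean level per kb, with a line at the mean, colour for the genotype and triangles for libraries with replicate number 1. Cyp2a5, Cyp2g1 and Cyp2f2 stand above the others, and 1 WT library (WT replicate 3) lies apart in Cyp2g1, Cyp2e1, Cyp4b1, Cyp2b10 and Cyp4f18.

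Most other subfamilies were read at low levels. Cyp2b10, a target of the receptor CAR in liver, had 151 ± 36.3 normalized counts per kb, Cyp2s1, which acts on retinoids and lipid peroxides, 127 ± 33.3, Cyp2d22 88.1 ± 7.73 and Cyp1b1, which oxidizes oestradiol and retinoids, 43.4 ± 5.42. Cyp2u1, a fatty acid hydroxylase, had 17.3 ± 2.41, Cyp2a4, a steroid hydroxylase, 12.7 ± 4.75, Cyp2c44, an epoxygenase, 11.5 ± 5.85 and Cyp2r1, the vitamin D hydroxylase, 9.36 ± 3.37. Cyp4a10, a target of PPAR alpha in liver, was not tested, with 4 counts over all libraries. Subfamilies differed in how many members were read. All 10 Cyp4f genes and 6 of the 7 Cyp2j genes were tested, against 5 of 16 Cyp2c, 4 of 9 Cyp3a and 2 of 8 Cyp4a genes. The 16 Cyp2c genes together gave 0.0260% of the P450 counts. The split between Cyp4a12a and Cyp4a12b is uncertain, with 51.1% and 50.6% of their 50-base stretches unique.

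The whole group made up between 0.546% and 0.840% of the total count of a library. The share was 0.666% ± 0.115 (SD, n = 3) in WT, 0.739% ± 0.0702 in het and 0.778% ± 0.0826 in homo libraries, and the genotypes overlapped. Cyp2a5 and Cyp2g1 made up most of the share. It was lowest in WT replicate 3, where Cyp2g1 (28228 normalized counts) and Cyp2f2 (19455) had their lowest values and Cyp2a5 (77278) did not. In whole tissue, fewer P450-expressing cells and less P450 RNA per cell cannot be told apart.

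Before the genotypes are compared, 2 libraries need to be described, since they differed from the others in P450 genes in ways the genotype did not share. WT replicate 3 was the lowest of the 9 libraries for 14 of the 52 tested P450 genes (26.9%), against 16.7% of all tested genes. It lay more than 1.5-fold under the other 8 libraries in 5 P450 genes, chosen after their values were seen. Cyp4b1 had 129 normalized counts there, beside 398 to 696 elsewhere. Cyp2e1 had 479 beside 1025 to 1858, and Cyp2b10 had 143 beside 287 to 405. Cyp4f39, the fatty acid omega-hydroxylase of skin ceramides, had 12.1 beside 35.3 to 46.6. Cyp2g1 had 28228 beside 46272 to 58998. A drop of that kind was seen in 2.07% of all tested genes. The sustentacular list moved unevenly in the same library. Of its 11 markers, Sec14l3 had 21290.4 beside 53991 to 66898, while Sult1c1 had 26055 beside 10831 to 14153, and the summed level of the list was 6283 CPM (counts scaled to the effective library size) beside 6322 to 7207 CPM. Of the 7 Bowman gland markers, the mucin Muc5b was high there (60684 beside 10950.5 to 17177), whereas Bpifb9b (20051 beside 37235 to 228857) and Bpifb9a (5569 beside 7751 to 55573) were lowest there, and the list summed to 3938 CPM beside 3131 to 11825 CPM. The part of these cell types in the P450 values was not tested.

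The same library was far above the others in Cyp4f18, a leukotriene hydroxylase of neutrophils. Its normalized counts were 42.2, 63.5 and 440 in WT replicates 1, 2 and 3, then 37.1, 60.1 and 112 in het and 38.8, 63.3 and 49.6 in homo libraries. The 6 macrophage and neutrophil markers summed to 777 CPM in WT replicate 3 and to 87.1 to 230.3 CPM in the other 8 libraries. The neutrophil gene S100a8 had 3415 normalized counts there and 85.5 to 959 elsewhere. Their part in the Cyp4f18 value was not tested.

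In het replicate 2, P450 genes typical of liver were read that were near 0 elsewhere, and those named here were chosen after their values were seen. It was the highest library for 15 of the 52 tested P450 genes (28.8%), against 5.90% of all tested genes, and lay more than 1.5-fold over every other library in 6 of them, a share of 0.526% among all tested genes. Cyp2c50 had 13 counts there and 1 count in the other 8 libraries together. Cyp3a25 had 12 counts there and at most 1 in any other library. Cyp2j5 had 9, Cyp2d9 8, Cyp2d13 8 and Cyp2c70 7 counts, beside at most 3 elsewhere. Among the genes too low to test, all 6 counts of Cyp2c54 and 8 of the 9 counts of Cyp2c29 were in this library. The 18 low genes gave 29 counts in het replicate 2 and 2 to 10 in each other library.

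Cyp3a11, the main Cyp3a enzyme of mouse liver, had 0, 26 and 0 counts in the WT, 0, 19 and 0 in the het and 0, 16 and 7 in the homo libraries. It was thus read only in the 4 libraries in which albumin was highest. Alb, the liver marker, had 149, 641, 182 and 139 normalized counts in WT replicate 2, het replicate 2, homo replicate 2 and homo replicate 3, and 0 to 6.84 in the other 5. The 4 liver markers summed to 32.5 CPM in het replicate 2 and to 0.356 to 9.22 CPM in the other 8 libraries. The part of liver RNA in these values was not tested.

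**Figure D2:**
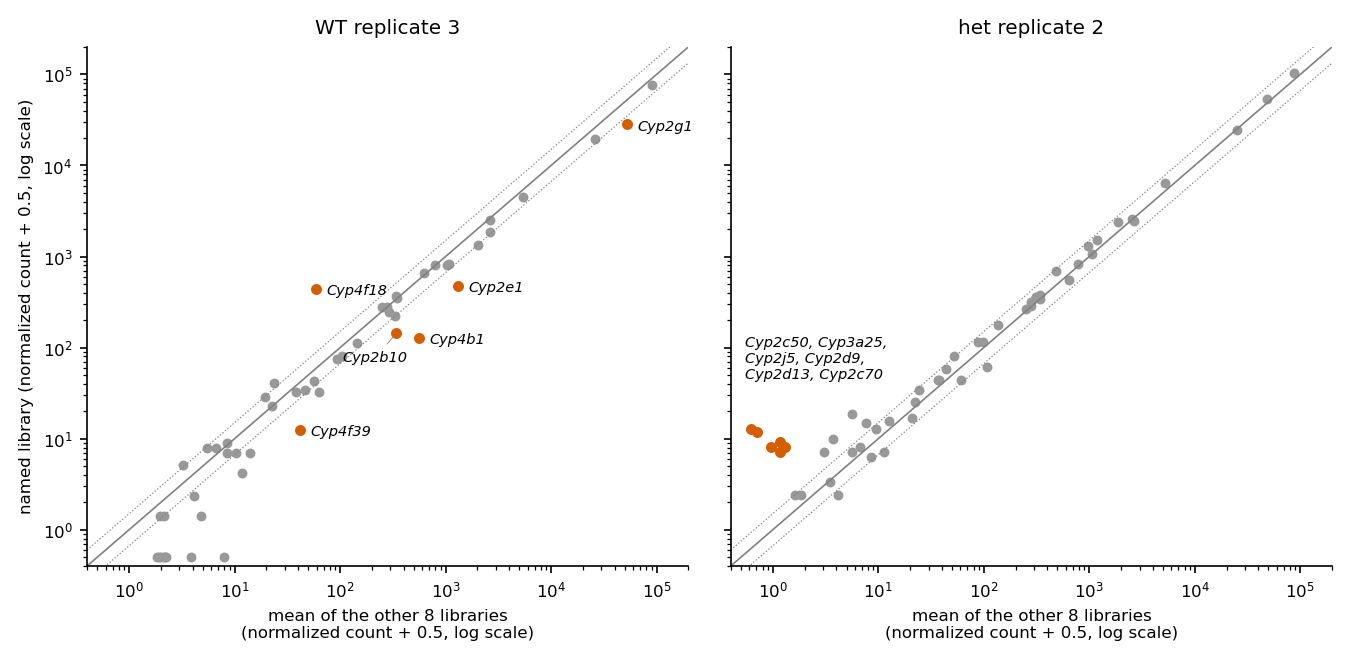
Normalized count plus 0.5 (log scales) of each of the 52 tested P450 genes in WT replicate 3 (left) and het replicate 2 (right), against its mean in the other 8 libraries, with a solid line at equal values, dotted lines at 1.5-fold of that mean and orange points for genes more than 1.5-fold outside every other library. In WT replicate 3, Cyp4f18 is above and 5 genes are below, and in het replicate 2, 6 genes of low level are above.

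The main question of the design was whether loss of TAAR enhancer 2 changed gene expression, and for the P450 genes no difference between genotypes passed the test. A gene was called where the adjusted p of edgeR's quasi-likelihood test was under 0.05 and the change was over 1.5-fold. The fit had genotype as its only term, so differences between libraries of different replicate numbers entered its error. In homo against WT, 0 of the 52 tested P450 genes were called, against a background of 0.0202% of all genes tested. Het against WT called 0 of 52 (background 0%), homo against het 0 of 52 (background 0.00506%), and a test for any difference between genotypes 0 of 52 (background 0.00506%). DESeq2 and limma-voom also called 0 in each comparison. At an unadjusted p under 0.05, edgeR gave 1 P450 gene in homo against WT and 0 in het against WT, homo against het and any genotype, where 3.45%, 1.28%, 0.662% and 1.39% of all genes reached that level. With a background of calls this near 0, the absence of calls among the 52 genes cannot tell them from other genes.

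The 3 dominant genes are given first. Cyp2a5 had 74239.5, 93894 and 77278 normalized counts in the WT, 77037, 102697 and 87807 in the het and 77589, 105976 and 97879 in the homo libraries. The genotypes overlapped, and within each of them replicate 2 was highest. Homo against WT gave a log2 fold change of 0.21 ± 0.17 (SE, adjusted p = 1, edgeR). Cyp2g1 had 46272, 53773 and 28228 in the WT, 48428, 54268 and 49447 in the het and 47469, 58998 and 58262 in the homo libraries. Its log2 fold change of 0.37 ± 0.22 in homo against WT (adjusted p = 1, edgeR) was 0.13 without WT replicate 3. Cyp2f2 had 32391, 26120.3 and 19455 in the WT, 29938, 24432 and 20559 in the het and 29514, 22706 and 22007 in the homo libraries, with the library numbered 1 highest in every genotype. Homo against WT differed by −0.06 ± 0.21 (log2, adjusted p = 1, edgeR), and by 0.14 without WT replicate 1.

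The aryl hydrocarbon receptor targets had no called difference between genotypes. Cyp1a2 had 4556, 5828 and 4553 normalized counts in the WT, 5009, 6391 and 5125 in the het and 4808, 5841 and 5643 in the homo libraries. Cyp1a1 had 1574, 2171 and 1345 in the WT, 1813, 2406 and 1980.3 in the het and 1737, 2312 and 2186 in the homo libraries. The log2 fold change in homo against WT was 0.13 ± 0.14 for Cyp1a2 and 0.30 ± 0.19 for Cyp1a1, with overlapping genotypes and an adjusted p of 1 (edgeR) for both. Cyp1b1, the third gene of family 1, had every het library below every WT library, at 278, 300 and 281 in the WT, 201, 263 and 227 in the het and 242, 227 and 262 in the homo libraries. Its change in het against WT was −0.31 ± 0.14 (log2, adjusted p = 1.0, edgeR). It was 1 of 52 tested P450 genes (1.92%) lower without overlap in het libraries, beside 1.95% of all tested genes, and 0 of 52 were higher without overlap, beside 2.01%.

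Among the 12 genes with the highest level per kb, log2 fold changes in homo against WT ran from −0.06 for Cyp2f2 to 0.56 for Cyp2e1, and in homo against het from −0.01 to 0.13. Cyp2e1 had 1025, 1378 and 479 normalized counts in the WT, 1035, 1524 and 1321 in the het and 1059, 1314 and 1858 in the homo libraries. Its difference of 0.56 ± 0.35 in homo against WT (adjusted p = 1, edgeR) fell to 0.23 without WT replicate 3. Cyp4b1 had 613, 553 and 129 in the WT, 492, 696 and 398 in the het and 560, 488 and 673 in the homo libraries, and its change of 0.42 ± 0.47 became −0.02 without WT replicate 3. The change was 0.10 ± 0.14 for Cyp4v3, 0.21 ± 0.15 for Cyp4f15, 0.23 ± 0.26 for Cyp3a13, 0.05 ± 0.12 for Cyp4f13 and 0.0043 ± 0.12 for Cyp2j6, none called, and those of Cyp4v3, Cyp4f13 and Cyp2j6 changed sign with 1 library left out. The plot of log2 fold changes by genotype pair shows these 12 genes with their errors.

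**Figure D3:**
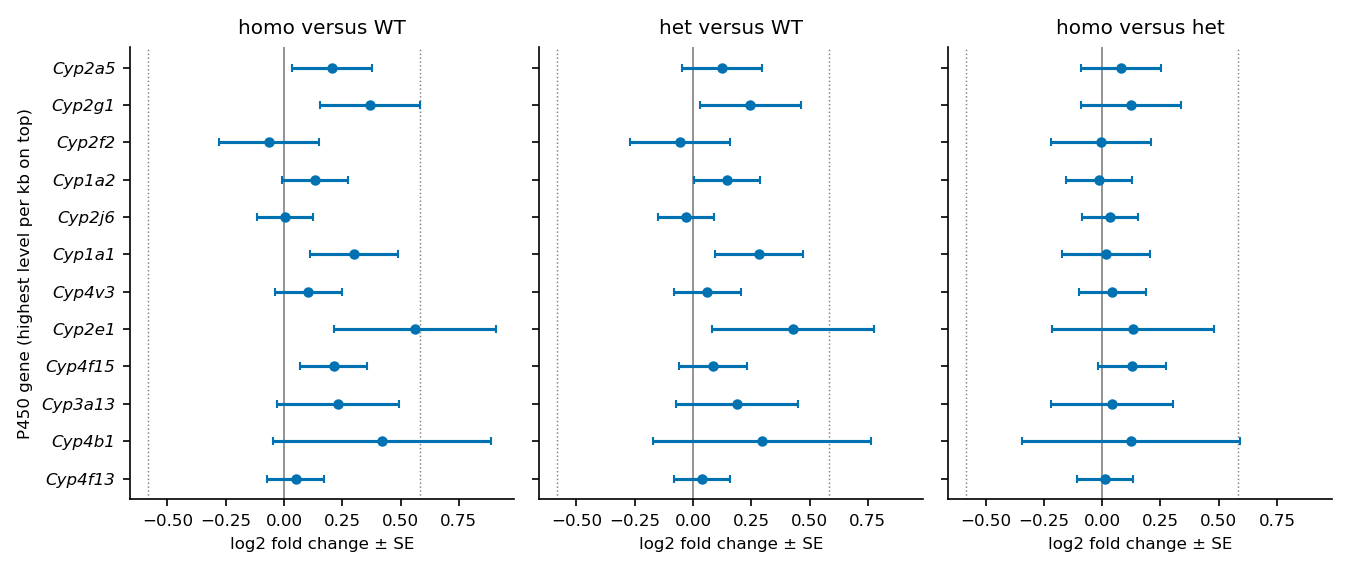
Log2 fold change with its standard error from the edgeR fit for the 12 P450 genes with the highest level per kb, in homo versus WT, het versus WT and homo versus het. Dotted lines mark 1.5-fold, 3 libraries entered each group, and none of the 12 genes was called in any panel.

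The smallest unadjusted p-values belonged to genes of low level. In homo against WT they were those of Cyp4f18 (log2 fold change −1.84 ± 0.81), of Cyp4a12a (−1.86 ± 0.94) and of Cyp2b19, a keratinocyte epoxygenase (−0.95 ± 0.52), each with an adjusted p of 1 (edgeR). The Cyp4f18 difference was −0.07 without WT replicate 3. Cyp4a12a had 13, 5 and 8 counts in the WT, 1, 7 and 5 in the het and 4, 3 and 0 in the homo libraries, a change that is also subject to the uncertain split with Cyp4a12b. Leaving out WT replicate 1 gave −1.20 for it, and leaving out homo replicate 1 gave −2.58. Cyp2b19 had 39.7, 95.7 and 33.5 normalized counts in the WT, 25.1, 57.2 and 63.5 in the het and 16.0, 42.5 and 28.1 in the homo libraries, and its difference was −0.33 without WT replicate 2. Besides Cyp1b1, the genes next in the het comparison were Cyp2c50 and Cyp2d13, and those of homo against het were Cyp4f37, Cyp3a25 and Cyp2c50. All but Cyp4f37 are among the genes read mainly in het replicate 2, and no fold is given for them. Cyp4f37 had 3, 8 and 2 counts in the WT, 7, 2 and 5 in the het and 0, 3 and 1 in the homo libraries, and differed by −1.85 ± 0.94 in homo against het (log2, adjusted p = 1.0, edgeR), by −3.02 without homo replicate 2 and by −1.33 without het replicate 1.

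Counted without regard to the test, no P450 gene had every homo library above every WT library (background 2.97% of all genes) and 2 of 52 (3.85%) had every homo library below (background 2.71%), namely Cyp1b1 and Cyp2r1. Cyp2r1 had 21.1, 22.7 and 27.9 normalized counts in the WT, up to 32.2 in the het and 10.3, 19.0 and 16.8 in the homo libraries, a log2 difference of −0.62 ± 0.42 in homo against WT that was not called. The median log2 fold change of the 52 genes was 0.11 in homo against WT, 0.13 in het against WT and −0.0050 in homo against het, beside 0.0040, −0.0084 and 0.0034 over all genes. With genes at 0 in a whole group set to their bound at the floor, and genes at or under the floor in both groups left out, the 3 medians were 0.08, 0.12 and −0.0043. The 2 comparisons with WT share the WT libraries, and leaving out WT replicate 2 raised both medians, to 0.29 for homo and 0.28 for het. Leaving out WT replicate 3 lowered the homo median to 0.03, and leaving out het replicate 2 lowered the het median to 0.01.

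The genes that serve or control P450 enzymes were taken from lists. Of 8 electron donors and their partners, 11 receptors and their partners, 26 other oxidizing, reducing and hydrolysing enzymes and 12 tested P450 genes of other families, 0 were called in homo against WT, in het against WT or in homo against het by edgeR, DESeq2 or limma-voom. At an unadjusted p under 0.05, edgeR gave 1 of these 57 genes in homo against WT, an electron donor, and 0 in the other 2 comparisons. Median log2 fold changes in homo against WT were 0.02, −0.12, 0.09 and −0.01 for the 4 lists. The aryl hydrocarbon receptor gene Ahr had 1023 to 1549 normalized counts, with the highest value in WT replicate 3. The receptor genes Nr1i3 (CAR) and Hnf4a, which drive P450 genes in liver, had at most 5.61 and 4.77. The summed level of the third list was low in WT replicate 3, with 2669 CPM there and 3289 to 3693 CPM in the other 8 libraries. Its members moved both ways there. Aox2 had 6854 normalized counts beside 11690 to 17627 elsewhere, whereas Cbr2 had 24910 beside 19864 to 24481 and Nqo1 4514 beside 3291 to 4193. The tested P450 genes of other families summed to 106 to 123 CPM, with the highest value in that library.

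A larger difference among the P450 genes followed the replicate number of the labels. The 3 libraries numbered 1, one of each genotype, differed from the 6 numbered 2 or 3 across many genes, with 5.42% of all tested genes called higher and 3.52% called lower in a fit that kept genotype as a term. The labels do not say what the number stands for, and the libraries numbered 1 also had the lowest total counts. This split was chosen after earlier results of these data had shown the libraries numbered 1 apart from the others. Its p-values therefore describe a difference already seen and are no independent test of it. Of the 52 P450 genes, 2 (3.85%) were called higher and 2 (3.85%) lower, which is near the background in both directions. Without WT replicate 3 the calls came to 8, and without homo replicate 1 to 2. At an unadjusted p under 0.05 there were 12 of 52, beside 42.6% of all tested genes. The median log2 difference of the 52 genes was −0.22, or −0.16 with genes at 0 set to their bound, and that of all genes was −0.03. Without overlap between the 3 and the 6 libraries, 4 P450 genes (7.69%) were higher and 4 lower, beside 17.8% and 16.2% of all genes.

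Of the 2 genes called higher, Cyp2w1, which oxidizes retinoids and fatty acids, had 89.3, 92.0 and 113 normalized counts in the WT, het and homo libraries numbered 1. It had 39.2 and 31.7 in WT replicates 2 and 3, 43.9 and 27.2 in het and 53.3 and 40.2 in homo libraries, so the 2 sets did not overlap. The log2 difference was 1.32 ± 0.19 (adjusted p = 0.00132, edgeR). Cyp2s1 had 812, 791 and 881 in the libraries numbered 1, against 507 and 666 in WT, 551 and 533 in het and 499 and 420 in homo libraries, again without overlap. Its difference was 0.66 ± 0.12 (adjusted p = 0.00413, edgeR), and 0.52 without homo replicate 1, which is under the 1.5-fold limit.

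Of the 2 genes called lower, Cyp2b13 had 16.1, 40.6 and 31.9 normalized counts in the libraries numbered 1, against 67.4 and 42.8 in WT, 80.1 and 64.5 in het and 81.3 and 70.2 in homo libraries. The sets did not overlap, and the log2 difference was −1.23 ± 0.24 (adjusted p = 0.00584, edgeR). Cyp2c55, an arachidonic acid hydroxylase of the gut, had 1 count in the 3 libraries numbered 1 and 28 in the other 6. The ratio of others to number 1, scaled by the size factors, was 10.7 with an exact 95% interval of 1.78 to 439 that covers counting error only, and the adjusted p was 0.0473 (edgeR). This call held in 4 of 16 alternatives, whereas Cyp2w1 and Cyp2b13 were called in all 16 and Cyp2s1 in 15.

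Cyp2f2 was higher in the libraries numbered 1 (0.44 ± 0.10, adjusted p = 0.0116), and Cyp3a13 (−0.56 ± 0.14, adjusted p = 0.0162) and Cyp4f13 (−0.20 ± 0.07, adjusted p = 0.0437) were lower, each by less than 1.5-fold (log2 values, edgeR). Cyp3a13 had 700, 826 and 787 normalized counts in the libraries numbered 1, against 1260.1 and 801 in WT, 1294 and 1032 in het and 1228 and 1211 in homo libraries. The 2 sets overlapped through WT replicate 3, and without that library the difference was −0.63 and was called. Cyp4f13 had 702 to 732 in the libraries numbered 1 and 783 to 871 in the others. The balance of the dominant genes differed accordingly. Cyp2f2 made up 17.0% to 18.8% of P450 counts in the libraries numbered 1 and 10.8% to 13.7% in the others, and Cyp2a5 43.1% to 44.6% and 47.8% to 54.5%. The plot of shares by genotype shows both.

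**Figure D4:**
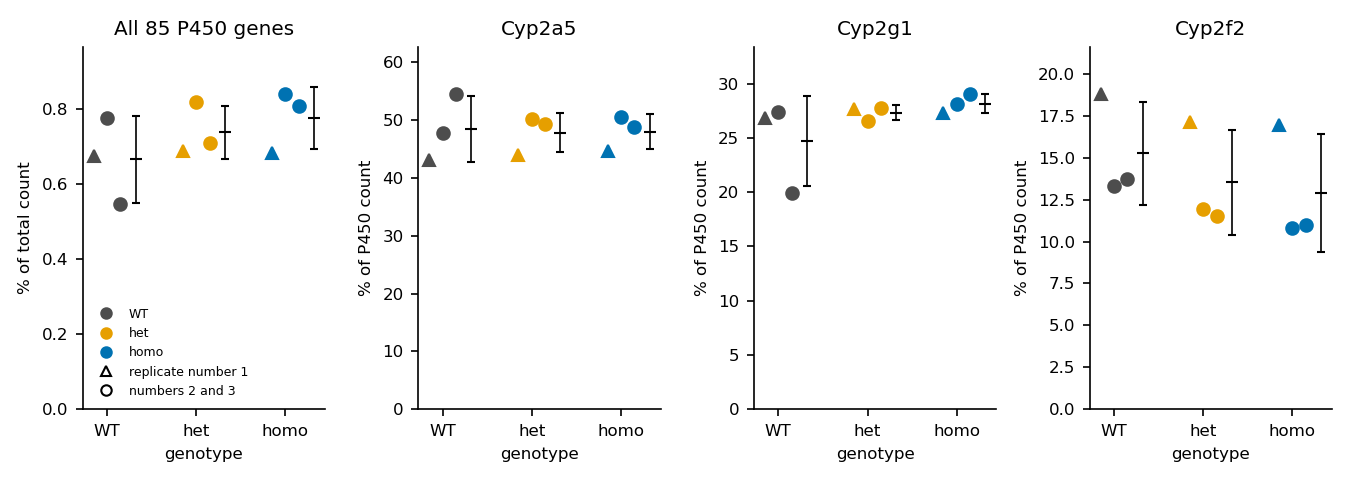
Share of the total count taken by all 85 P450 genes (left) and share of the P450 count taken by Cyp2a5, Cyp2g1 and Cyp2f2, per library, with the mean and SD of each genotype (n = 3) beside the points and triangles for replicate number 1. The Cyp2f2 share is 17.0% to 18.8% in the 3 triangles and at most 13.7% in the circles, and the P450 share is lowest, at 0.546%, in WT replicate 3.

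Of the 8 electron donors and partners, Por and Cyb5r3 were called higher in the libraries numbered 1, and the median log2 difference of the list was −0.0029. Por had 17702, 18572 and 19329.8 normalized counts in the WT, het and homo libraries numbered 1 and 10697 to 12756 in the other 6 (log2 difference 0.64 ± 0.07, adjusted p = 4.32e-04, edgeR). Cyb5r3, a reductase of cytochrome b5, had 6153 to 6463 and 3611 to 4460.1 (0.64 ± 0.07, adjusted p = 4.58e-04, edgeR). Cyb5r1, a related reductase, was lower by less than 1.5-fold (−0.28 ± 0.08, adjusted p = 0.0250, edgeR). Cyp2a5, which takes electrons from Por, had a log2 difference of −0.30 ± 0.10 (adjusted p = 0.0574, edgeR). Of the 11 receptors and partners 0 were called in either direction by edgeR, DESeq2 or limma-voom, with 3 at an unadjusted p under 0.05 and 1 of them, Rxra, past an adjusted p of 0.05 (edgeR). Of the 26 other enzymes Aldh3a1 alone was called, and of the 12 P450 genes of other families Cyp26b1, a retinoic acid hydroxylase, alone was called, both higher.

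**Figure D5:**
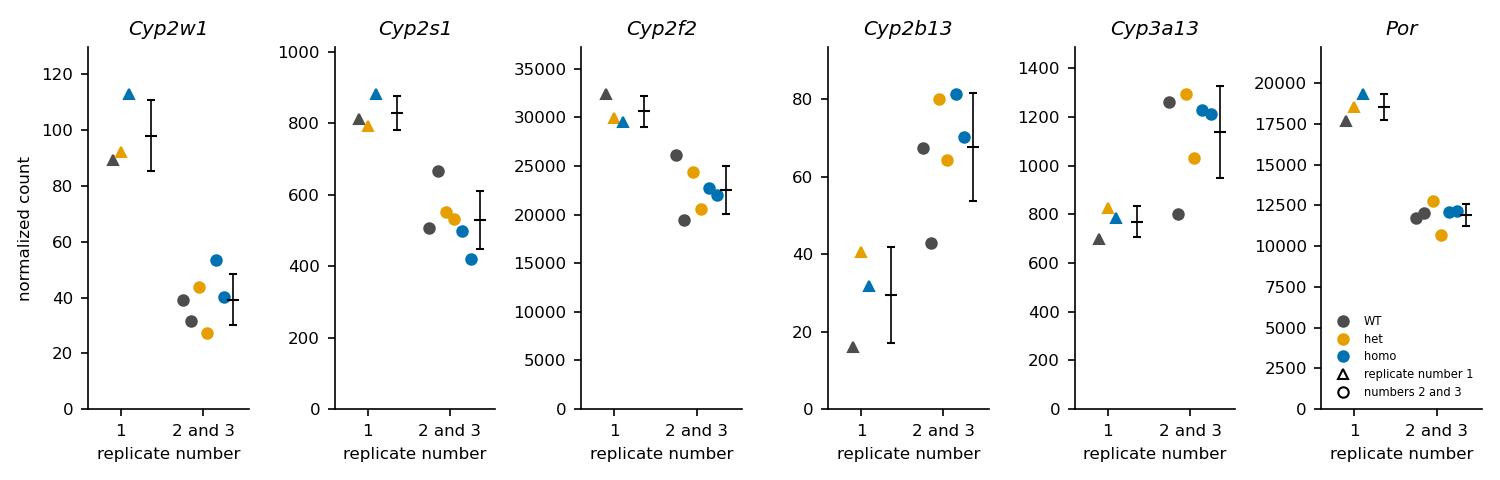
Normalized counts per library by replicate number for the P450 genes Cyp2w1, Cyp2s1, Cyp2f2, Cyp2b13 and Cyp3a13 and for Por, with the mean and SD of the 3 libraries numbered 1 and of the 6 others, on axes that start at 0 and with colour for the genotype. The 3 libraries numbered 1 lie above the other 6 for Cyp2w1, Cyp2s1, Cyp2f2 and Por and below them for Cyp2b13, while Cyp3a13 overlaps through WT replicate 3.

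Markers of several cell types differed by number in the same libraries. Of 11 sustentacular markers 0 were called by edgeR, DESeq2 or limma-voom, with 4 at an unadjusted p under 0.05 (edgeR) and summed levels of 6322 to 6706 CPM in the libraries numbered 1 and 6283 to 7207 CPM in the others. Of 7 Bowman gland markers, Sox9, Sox10 and Dmbt1 were called higher, and the summed level overlapped (3131 to 11825 and 3859 to 10769 CPM). The basal cell markers Neurog1 and Krt5 were higher. Of 6 respiratory ciliated markers, Foxj1 and Dnah5 were higher, with 611 to 676 CPM and 430 to 578 CPM. Gap43 and Gng8 of 5 immature neuron markers and Foxi1 of 4 microvillous markers were higher. Obp1a and Lcn4 of 7 nasal gland binding proteins in the table were lower, while Obp2a, Lcn3 and Obp2b had log2 differences of 0.70, 0.67 and 0.36 that were not called. S100a8 and S100a9 of 6 macrophage and neutrophil markers and Scgb3a1 of 5 tested respiratory secretory markers were lower by edgeR and DESeq2, but limma-voom called none of these 3. It called Cd68, another macrophage marker, for which edgeR gave a log2 difference of 0.79 (adjusted p = 0.0503). None of the mature neuron (7), endothelial (3), liver (4) or tested blood (1) markers was called by edgeR, with 3, 1, 1 and 0 of them at an unadjusted p under 0.05 and 1 liver marker called by DESeq2. The haemoglobin genes Hba-a1, Hba-a2, Hbb-bs and Hbb-bt were at 0 in all libraries, while the tested blood marker, Alas2, had 14.7 to 27.6 CPM. The 0 counts therefore do not show that blood RNA was absent. The treatment of reads that map to several genes is not given, and its part in these 0 counts was not tested. The respiratory secretory marker Scgb1a1 had at most 1 count in a library. In homo against WT 0 of the 76 tested markers were called by edgeR, DESeq2 or limma-voom. At an unadjusted p under 0.05 edgeR gave 4 of them. The 7 nasal gland binding proteins summed to 3845 to 7137 CPM in WT and 2486 to 3580 CPM in homo libraries, without overlap. The blood list, with 1 tested gene, also had no overlap, and its sums were higher in homo libraries. Among all tested genes, 2.71% were lower and 2.97% higher in homo libraries without overlap. How often the sum of a list separates in this way was not tested. The part of cell composition in the P450 differences by number was not tested.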

How the data were processed

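RNA of the whole MOE was sequenced in 9 libraries as strand-specific polyA libraries. According to the methods and the submitters' processing notes, reads were trimmed with Trimmomatic 0.36, mapped to mm10 with HISAT2 2.1.0 and counted per gene with featureCounts (Subread 1.6.2). The annotation release, strand option and treatment of multiply mapped reads are not given in the sources used here. The authors deposited raw counts per gene and, as a second signal, counts normalized with DESeq2 1.20.0, which were checked to equal the raw count divided by 1 size factor per library.

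Groups came from the sample labels. P450 genes were matched by symbol to GENCODE M21 (84 of 85, 1 of them by an older name), which gave exon lengths. Levels are the authors' normalized counts, per kb of exon between genes, and CPM values use TMM effective library sizes. The raw counts were tested with edgeR 4.0.16 (quasi-likelihood test, TMM, two-sided) over all 9 libraries, for the 19775 genes with at least 10 counts in sum, with Benjamini-Hochberg adjustment over all of them. The fit was tested on simulated data. The contrast of number 1 against 2 and 3 had genotype as a covariate and was chosen with earlier results of these data known. The labels name no animals, and the study describes the replicates of this experiment as separate mice that were littermates. DESeq2 1.42.0, limma-voom (limma 3.58.1), other scalings, filters, designs and the removal of each library were alternatives.

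Replicate numbers recur in each genotype. To check whether they pair the libraries, deviations from the genotype means over 16156 genes were correlated between same-numbered libraries. For numbers 1, 2 and 3, r was 0.689, 0.468 and 0.573 (WT, het), 0.822, 0.387 and 0.230 (het, homo) and 0.541, 0.345 and −0.083 (WT, homo). A pair of genotypes counted as paired where every r was over 0.1, which was met by WT with het and by het with homo only. Libraries with different numbers also correlated, with r of 0.595 (het 2, homo 3), 0.535 (het 3, homo 2) and 0.549 (WT 2, homo 3). For het with homo the check therefore cannot show that numbers 2 and 3 pair the libraries.

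Named genes are the 12 highest per kb, genes called in any comparison, the 3 smallest p-values per genotype comparison and examples of each subfamily, and up to 4 genes of each list, with others named after their values were seen where a statement turned on them. The P450 genes and lists were chosen with earlier results of these data known. Some marker results are not reported here. Upstream windows and motifs came from RefSeq, with 66 of 85 genes matched. Intervals and floors cover counting error only, since duplicate reads could not be told from separate molecules.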

Additional observations from a re-analysis of the deposited data

How the results depend on the processing

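Across 33 results and 583 recomputed values, 562 kept their direction and side of the threshold, or moved by less than the spread between libraries. The P450 calls stayed at 0 in the 3 genotype comparisons and the test of any genotype under every alternative run, leaving out each library included. In the fit with a replicate block the counts were 0, 0, 0 and 0 and the medians 0.14 (homo versus WT), 0.13 (het versus WT) and 0.0012 (homo versus het), so the block changed no call.

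The 4 P450 genes called by replicate number became 8 without WT replicate 3 and 2 without homo replicate 1. The median difference by number was −0.30 without a filter on low counts, which brings in genes with few reads. Leaving out each library, the median of homo versus WT lay between 0.033 and 0.29 and that of het versus WT between 0.010 and 0.28. The Cyp2j6 log2 difference in homo versus WT, 0.0043, became −0.0035 with median-ratio size factors, −0.0027 with no filter and −0.0036 with DESeq2. Leaving out each library gave −0.065 to 0.10 for Cyp2j6, −0.24 to 0.14 for Cyp2f2, −0.023 to 0.75 for Cyp4b1, −0.067 to 0.24 for Cyp4v3 and −0.027 to 0.13 for Cyp4f13. The cause of these shifts was not tested. By number, Cyp3a13 was called at −0.63 without WT replicate 3 and at −0.61 without het replicate 3, and Cyp2s1 was not called at 0.52 without homo replicate 1.

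Of the 12 genes highest per kb, 12 stayed with CPM in place of normalized counts, and 11 with coding length in place of exon length, an alternative chosen after seeing the data. Coding length from protein sequences was not run, as no protein table was used here. With 3 libraries per genotype, the SE of 0.12 to 0.47 of the 12 highest genes limits what could be detected in homo versus WT. Genes under 10 counts in sum could not be compared.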
